A study of Mus musculus with 6 samples.

Results

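Oxidative phosphorylation was examined through its nuclear-encoded subunits in endothelial cells sorted from LN of mice. The members were all genes whose symbol in the platform table names a subunit or a close partner of respiratory complexes I to V (Nduf, Sdh, Uqcr, Cox and Atp5 genes), each read at its brightest probe set over the 6 arrays. This gave 90 genes out of 18193 with a probe set of their own. Of these, 34 were assigned to complex I, 4 to complex II, 8 to complex III, 18 to complex IV and 17 to complex V, and 9 were assembly factors or accessory proteins.

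The cells came from pooled skin-draining and mesenteric LN of untreated 6-week-old C57BL/6 mice, were depleted of CD45+ cells with magnetic beads and were sorted by gp38 and CD31. The compared groups were 3 arrays whose gate label is double positive and 3 arrays whose gate label is CD31+. The same labels call the double-positive arrays BEC and the CD31+ arrays LEC, which is the reverse of the sort gates in the study's methods (LEC, gp38+ CD31+, and BEC, gp38neg CD31+), so the arrays are named here by gate. The markers sided with the gate word. The mean log2 value of 5 lymphatic markers (Pdpn, Lyve1, Mmrn1, Flt4 and Prox1) was 8.63 to 9.29 on the double-positive arrays and 4.64 to 5.29 on the CD31+ arrays, and that of 5 blood endothelial markers (Flt1, Cd34, Nrp1, Sox17 and Aplnr) was 4.21 to 4.65 and 8.95 to 9.34. Prox1 alone of the 10 differed little, by 0.07 at its brightest probe set. Every difference below is the double-positive mean minus the CD31+ mean of GCRMA log2 values, so a difference of 1 means 2-fold signal. The arrays measured RNA of whole sorted populations, in which fewer cells of a type and less RNA per cell cannot be told apart.

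The respiratory chain passes electrons from NADH (complex I) and succinate (complex II) through complex III and cytochrome c to oxygen (complex IV), and complexes I, III and IV pump protons across the inner mitochondrial membrane. Complex V, the ATP synthase, uses the proton gradient to make ATP. All complexes except complex II also contain subunits encoded in mitochondrial DNA, so their assembly depends on both genomes. Endothelial cells are known for making much of their ATP by glycolysis, with mitochondria also serving biosynthesis and signaling.

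The values of oxidative phosphorylation genes were higher on the double-positive arrays, but no single gene passed the test over the whole table. At 5% FDR limma called 0 of the 90 members higher and 0 of them lower, against 0.879% of all genes higher and 0.176% lower. The count of members at an unadjusted p under 0.05 was 28 higher and 0 lower, where 12.5% of all genes were higher and 2.12% lower. The median difference over the 90 members was 1.02, and over all genes it was 0.00. Of the 90 members, 61 had a mean log2 value of at least 5, 7 lay within 0.1 of the floor of the values (2.39) on every array, and 22 lay between. Over the 61 the differences ran from 0.24 to 1.97 with a median of 1.3, and all 61 were above 0.

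Part of this difference was shared by bright genes in general. The 3984 bright genes, those averaging 5 or more, had a median difference of 0.73. When each array was centred on the median of its bright probe sets, every difference dropped by 0.68. The median over the 61 bright members then was 0.62, over all bright genes it was 0.05, and 54 of the 61 members stayed above 0 while 7 (Ndufa8, Uqcr10, Sdhd, Uqcrb, Ndufs1, Ndufa10 and Ndufc2) lay below. The remaining excess was seen at each level of brightness. Among genes with a mean of 5 to 7 the median difference was 1.05 for 15 members and 0.57 for the other genes. For a mean of 7 to 9 it was 1.05 for 13 members and 0.79 for the others. For a mean of 9 to 11 it was 1.46 for 24 members and 1.08 for the others, and for a mean above 11 it was 1.38 for 9 members and 0.97 for the others. In each bin most members lay above the median of the other genes, with 12 of 15, 10 of 13, 21 of 24 and 7 of 9 from the dimmest to the brightest bin. Without CD31+ replicate 3 the gap was smaller in each bin. In the same order the medians then were 0.70, 0.73, 0.98 and 0.95 for members and 0.44, 0.56, 0.81 and 0.66 for the others.

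**Figure D1:**
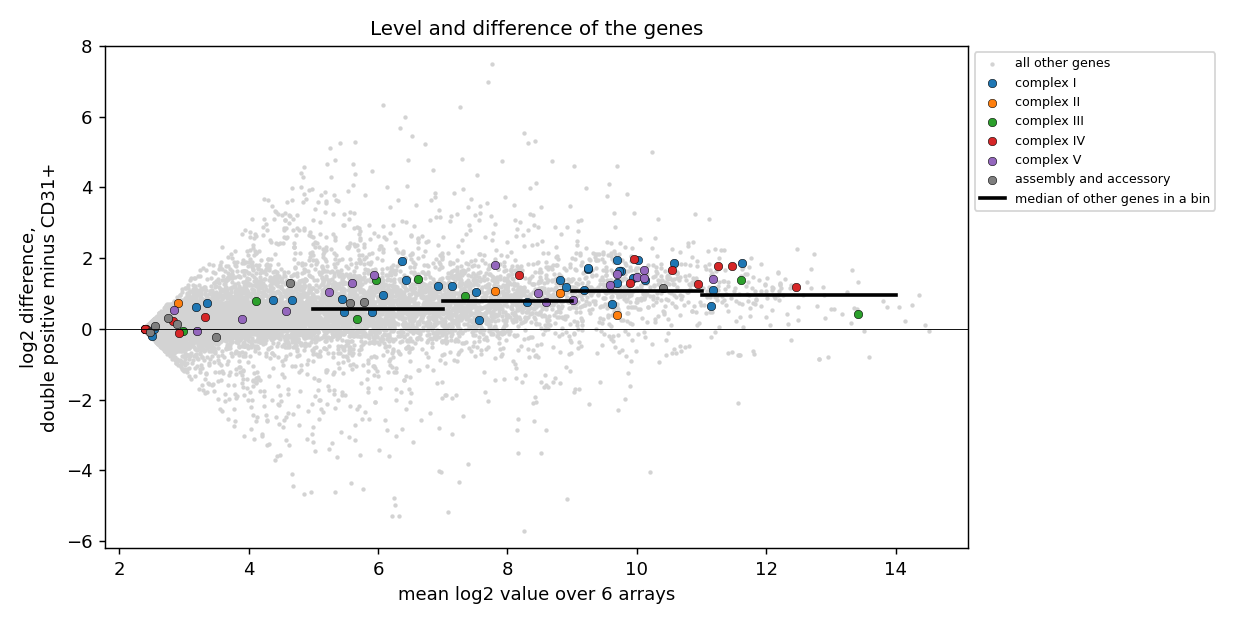
Mean log2 value over the 6 arrays (x axis) against the log2 difference, double positive minus CD31+ (y axis), for all genes at their brightest probe set. Grey points are other genes, coloured points are the 90 members by complex, and black lines are the medians of the other genes in 4 bins of brightness (0.57, 0.79, 1.08 and 0.97), below most members of each bin.

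A filter that kept probe sets reaching a log2 value of 5 on 3 or more arrays changed the calls. With it, 62 of the 90 members were tested, each with at least 1 array of either group at 5 or more. limma then called 30 members higher and 0 lower, against 33.2% higher and 4.11% lower of the 4207 genes tested. On centred arrays it called 8 of the 62 higher, near the 12.6% of all genes tested, and 0 lower, against 9.63%. The 8, named here after their values were seen, were Ndufa1, Ndufc1, Ndufb9, Cox6c, Cox4i1, Cox6b1, Atp5c1 and Atp5k. Same-numbered arrays deviated together, so the replicate number was also used as a block. Filter and block together gave 49 members higher and 0 lower (46.4% and 4.99% of genes), and with centring as well 23 were higher and 0 lower (18.3% and 14.7% of genes). With the block and no filter 0 were called (0.011% of genes higher and 0% lower). Centring without the filter also moved every value at the floor, and it gave 36 members higher and 16 lower where 7.2% of all genes were higher and 67.2% lower.

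Replicate 3 of the CD31+ arrays stood apart in these genes. The median over the 61 bright members was 8.82, 9.0 and 7.66 on CD31+ replicates 1, 2 and 3, and 10.29, 9.65 and 9.43 on double-positive replicates 1, 2 and 3. The groups did not overlap, and CD31+ replicate 3 was the lowest of the 6 arrays for 56 of the 61 genes. The same-numbered pairs differed by a median of 1.23, 0.66 and 1.92 over these genes and by 0.72, 0.39 and 1.04 over all 3984 bright genes. Without CD31+ replicate 3 the median difference of the bright members was 0.90, against 0.54 for all bright genes. Without that array the filter gave 17 members higher and 0 lower (23.2% and 4.54% of genes), and with centring as well 1 higher and 0 lower (9.2% and 7.13% of genes). The one was Ndufa1 (centred difference 1.05, limma adjusted p = 0.0308). Leaving out CD31+ replicate 2 instead gave 46 higher and 0 lower (36.7% and 3.8% of genes), and leaving out CD31+ replicate 1 gave 22 and 0 (28.5% and 3.35% of genes).

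Other measures moved with this array. The gap between the 3' and 5' probe sets of Actb, which widens with RNA breakdown and with short amplified RNA, was 6.90, 7.38 and 6.07 on CD31+ replicates 1 to 3 and 7.58 to 7.83 on the double-positive arrays. CD31+ replicate 3 thus had the smallest gap. Of 10 pericyte markers 7 were lower and 2 higher on average on the double-positive arrays, and Des was at the floor throughout. Pdgfrb had log2 values of 7.06, 8.5 and 5.12 on CD31+ replicates 1 to 3 and 2.99 to 4.78 on the double-positive arrays. Acta2 had 6.34, 7.43 and 5.17 against 3.49 to 4.27. Notch3 and Abcc9 were also lower on average on the double-positive arrays, by a difference of -1.63 and -1.6, while Rgs5 and Kcnj8 had differences of 0.33 and 1.38. All 6 had their lowest CD31+ value on replicate 3. Myh11 went the other way, with 2.46, 2.47 and 3.18 on CD31+ replicates 1 to 3. The mean over the 10 pericyte markers was 3.68 to 4.93 on the CD31+ arrays and 3.55 to 3.86 on the double-positive arrays, with Cspg4 and Higd1b at 2.65 or less throughout. Over 4 markers of fibroblastic reticular cells the mean was 3.96 to 5.04 and 3.27 to 3.55. The hematopoietic markers were at 2.59 to 2.90 and 2.47 to 2.51, with Cd79a at the floor, and the muscle markers at 2.82 to 2.92 and 2.79 to 2.80. The part of these measures in the differences was not tested.

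**Figure D2:**
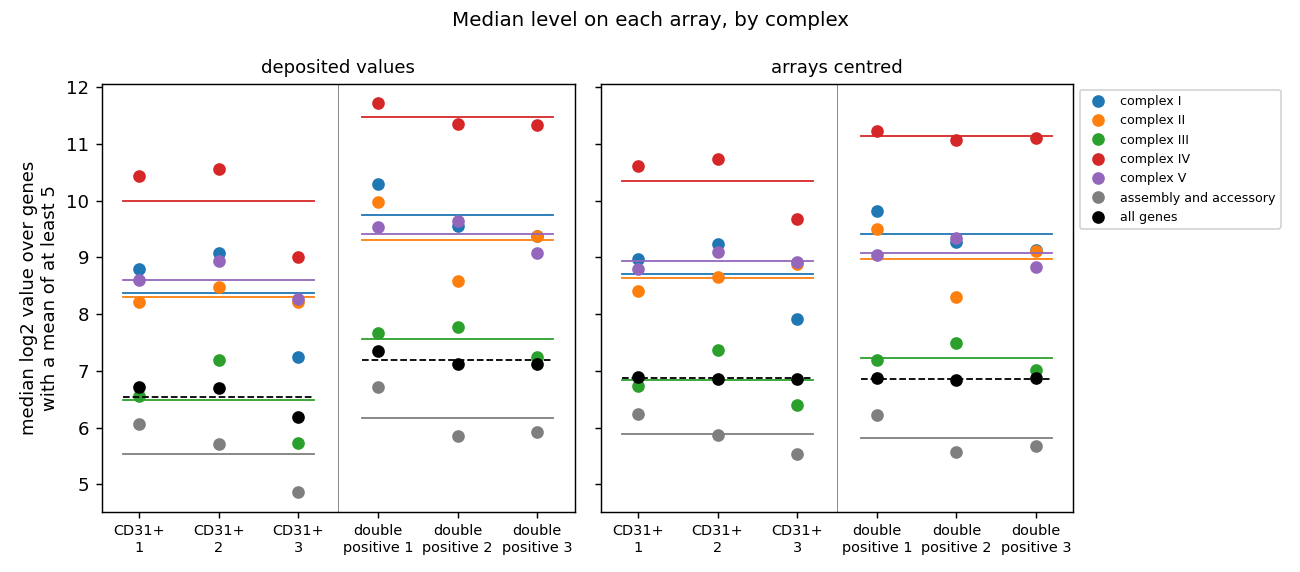
Median log2 value on each array over the members of a complex with a mean of at least 5 (28 for complex I, 3 for II, 6 for III, 8 for IV, 13 for V and 3 assembly or accessory genes) and over 3984 genes, as deposited (left) and with arrays centred (right). Points are arrays, lines are group means, heights of different complexes are not comparable, and the lowest complex I point is that of CD31+ replicate 3 in both panels, at 7.25 and 7.91.

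Complex I, the NADH dehydrogenase and the largest of the complexes, had 3 of 29 tested members higher with the filter and centred arrays, near the 12.6% of all genes. Of its 34 members 28 were bright, with differences of 0.24 to 1.96 and a median of 1.26 (0.58 centred), and the groups did not overlap for 15 of the 28. Over all bright genes 46.9% were higher without overlap and 5.5% lower. At 5% FDR with the filter on deposited values 13 of the 29 were higher, where 33.2% of all genes were. Ndufa1, a small X-linked accessory subunit of the membrane arm, had log2 values of 11.02, 10.94 and 10.11 on the CD31+ arrays and 12.63, 12.39 and 12.61 on the double-positive arrays. The lowest double-positive value lay above the highest CD31+ value by more than the spread within either group. The difference was 1.85 with SE 0.288 (limma adjusted p = 0.118), or 3.6-fold, and the adjusted p was 0.00331 under the filter and 0.00923 on centred arrays under the filter.

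Ndufb9 and Ndufc1, 2 further accessory subunits of the membrane arm, had the largest differences of the complex. Ndufb9 had 9.15, 9.85 and 8.12 on the CD31+ arrays and 11.46, 10.68 and 10.86 on the double-positive arrays, a difference of 1.96 with SE 0.532 (limma adjusted p = 0.334 and 0.0234 with the filter and centring). A dimmer probe set of Ndufb9 differed by 0.59. Ndufc1 had 9.0, 9.45 and 7.71 against 11.05, 10.46 and 10.50, a difference of 1.95 with SE 0.532 (limma adjusted p = 0.337 and 0.0227 with the filter and centring). Neither gene overlapped between the groups. At the other end Ndufa8, an accessory subunit, had 7.62, 8.18 and 6.49 against 8.29, 7.58 and 7.17. Its groups overlapped, and its difference of 0.24 became -0.43 with centred arrays.

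The subunits that carry the cofactors of complex I, named here after their values were seen, differed by 0.48 to 1.64. Ndufv1, which binds NADH, differed by 1.09 with overlapping groups, and its partner Ndufv2, an iron-sulfur protein, by 1.38 (limma adjusted p = 0.0236 with the filter). The iron-sulfur subunits Ndufs8, Ndufs7 and Ndufs1 differed by 1.64, 0.76 and 0.48 and the core subunit Ndufs3 by 0.83, and these 4 did not pass with the filter. Ndufc2 is an example of probe sets that disagree. Its brightest probe set differed by 0.66, while a dimmer one with a mean of 3.77 differed by 1.51 and passed over the whole table (limma adjusted p = 0.0361). Ndufb4, whose probe set lay near the floor (2.40 to 2.69), was the one member with lower values on all double-positive arrays, by 0.19. Without CD31+ replicate 2 it passed as lower, at -0.27 (limma adjusted p = 0.0259). The share of all genes called in that fit was not counted.

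**Figure D3:**
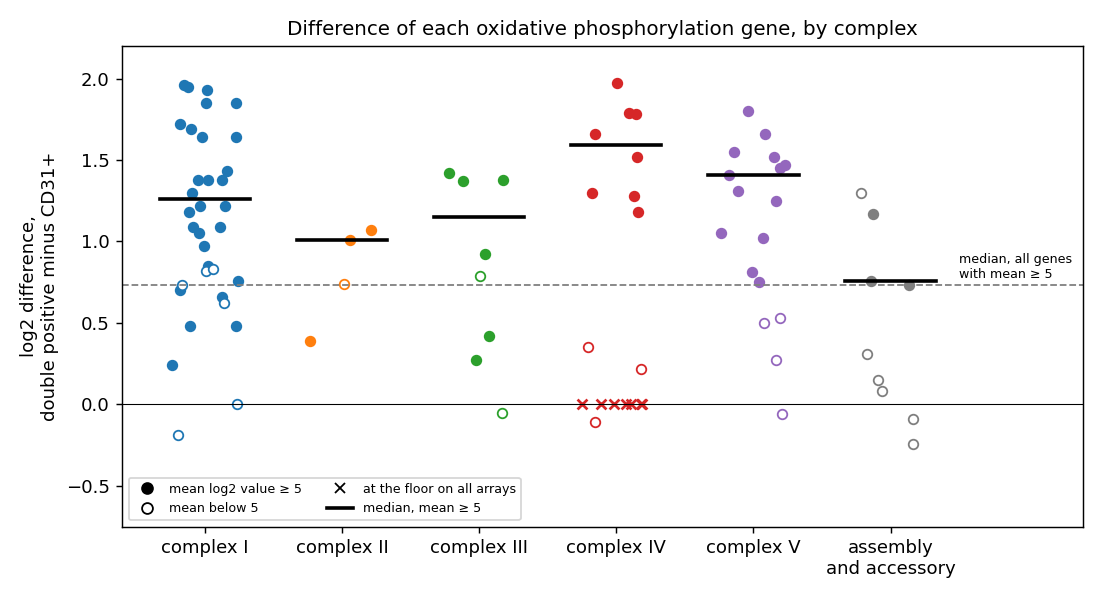
Log2 difference, double positive minus CD31+, of each of the 90 members (points), grouped by complex. Filled points have a mean log2 value of at least 5, open points lie below it, crosses are at the floor on every array, black lines are medians of the filled points (1.26, 1.01, 1.15, 1.59, 1.41 and 0.76 from left to right), and the dashed line is the median of all bright genes, 0.73. The groups are not matched in level.

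Complex II, the succinate dehydrogenase shared with the TCA cycle, had a median difference of 1.01 over its 3 bright members, against 1.3 for all bright members. With the filter 3 of its 4 genes were tested and 0 were higher, where 33.2% of all genes were. A count over 3 genes says little about the complex. Sdha, the flavoprotein that oxidizes succinate, had 8.21, 8.48 and 8.21 on the CD31+ arrays and 9.98, 8.58 and 9.37 on the double-positive arrays, a difference of 1.01 with SE 0.397 (limma adjusted p = 0.602). Sdhb, the iron-sulfur subunit, had 7.56, 7.69 and 6.60 against 8.88, 8.11 and 8.05, a difference of 1.07 with SE 0.417 (limma adjusted p = 0.595). The groups of both genes did not overlap, but for Sdha double-positive replicate 2 lay close to the highest CD31+ array. Sdhd, a membrane anchor, had 9.81, 9.73 and 8.95 against 9.99, 9.98 and 9.68, and its difference of 0.39 became -0.29 with centred arrays. This probe set of Sdhd has the suffix for possible cross-hybridization. A dimmer one, with a mean of 3.51, differed by 1.06 without overlap (limma adjusted p = 0.566). Sdhc, the other anchor, was dim, at 2.49 to 2.56 on the CD31+ arrays and 2.49, 3.92 and 3.42 on the double-positive arrays. Under the filter and the replicate block Sdha and Sdhb passed as higher (limma adjusted p = 0.0308 and 0.0154), and with centring as well neither did.

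Complex III hands electrons from ubiquinol to cytochrome c. Of its 8 members 6 were tested with the filter and 1 was higher, where 33.2% of all genes were. This was Uqcrc2, a core subunit, with 10.92, 11.78 and 10.06 on the CD31+ arrays and 12.15, 12.42 and 12.33 on the double-positive arrays, a difference of 1.38 with SE 0.482 (limma adjusted p = 0.508 and 0.0325 with the filter). Uqcr11, a small subunit, had the largest difference among the bright members, 1.42, with 6.19, 6.81 and 4.75 against 7.36, 7.78 and 6.87. Uqcr10, another small subunit, had the smallest, 0.27, with 5.66, 5.66 and 5.31 against 6.48, 5.66 and 5.31, so that its groups overlapped. Uqcrb, a subunit near the ubiquinone site, had 13.75, 13.16 and 12.73 against 13.76, 13.41 and 13.73 at its brightest probe set, where the groups overlapped. A dimmer probe set of Uqcrb, with a mean of 7.25, differed by 1.82 and passed with the filter (limma adjusted p = 0.00463). Uqcrc1, the other core subunit, read 2.75 to 3.34 on all arrays and could not be compared.

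Complex IV, the cytochrome c oxidase, had the highest median difference over bright members of the 6 groups of genes, 1.59 (0.91 centred), and all 8 of its bright members were higher without overlap, as were 46.9% of all bright genes. With the filter 6 of the 8 were higher (33.2% of all genes), and with centring as well 3 were (12.6% of all genes). The median level of the 8 was 10.75, also the highest of the 6 groups. It was 9.22 for complex I, 8.81 for II, 6.98 for III, 9.01 for V and 5.78 for assembly and accessory genes. Differences of other genes varied with level, so the order of the 6 groups is not matched for it. Cox4i1, the common form of subunit 4, had 8.84, 10.12 and 7.94 on the CD31+ arrays and 11.31, 10.86 and 10.62 on the double-positive arrays. Its difference of 1.97, or 3.91-fold, was the largest of the bright members (standard error 0.635, limma adjusted p = 0.450 and 0.0448 with the filter and centring). The CD31+ arrays of this gene spread over more than 2 on the log2 scale, while the double-positive arrays lay within 0.7.

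Cox6b1, a subunit that faces the intermembrane space, had 10.84, 11.40 and 9.49 against 12.52, 12.33 and 12.25, a difference of 1.79. Cox6c had 10.80, 10.83 and 9.46 against 11.81, 12.26 and 12.35, a difference of 1.78, and its other bright probe set differed by 2.29 (limma adjusted p = 0.0688). Both genes passed with the filter and centred arrays (limma adjusted p = 0.0467 and 0.0417). Ndufa4, named as a complex I subunit but now counted with complex IV, differed by 1.52, and Cox7a2, the common form of subunit 7a, by 1.66, and both passed with the filter (limma adjusted p = 0.0148 and 0.0184). Cox6a1, the common form of subunit 6a, had the smallest difference of the bright members, 1.18, with 12.32, 12.44 and 10.85 against 13.26, 12.92 and 12.97.

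Alternative isoforms of complex IV subunits were at or near the floor in both groups. Cox4i2, known from lung and from hypoxia, Cox7a1 and Cox8b, known from heart and skeletal muscle, Cox6b2, Cox7b2 and Cox8c, known from testis, and the hypoxia-induced paralog Ndufa4l2 lay within 0.1 of 2.39 on all 6 arrays. The muscle isoform Cox6a2 read 2.85 to 3.14. For 6 pairs of an alternative and a common isoform the within-array difference of log2 values, which does not move with the centring, was compared between the groups. It was lower on the double-positive arrays by 1.97 for Cox4i2/Cox4i1, 1.79 for Cox6b2/Cox6b1, 1.66 for Cox7a1/Cox7a2, 1.52 for Ndufa4l2/Ndufa4 and 1.29 for Cox6a2/Cox6a1 (exact 2-sided permutation p = 0.1 each, 0.12 adjusted over the 6 pairs). For Cox8b/Cox8a it was lower by 0.22 (exact permutation p = 0.2). With 3 arrays against 3 the smallest p is 0.1. With the alternative isoform at or near the floor, these values carry the common isoform alone, as deposited. The shift of 0.68 that centring removes from single genes thus stays in them. Cox4i1, for example, differed by 1.97 as deposited and by 1.29 with centred arrays. A value at the floor does not show that a transcript was absent, since common subunits such as Cox8a (2.66 to 3.23), Cox7c (3.12 to 3.98), Ndufb1 and Atp5g1 also read low on all arrays.

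**Figure D4:**
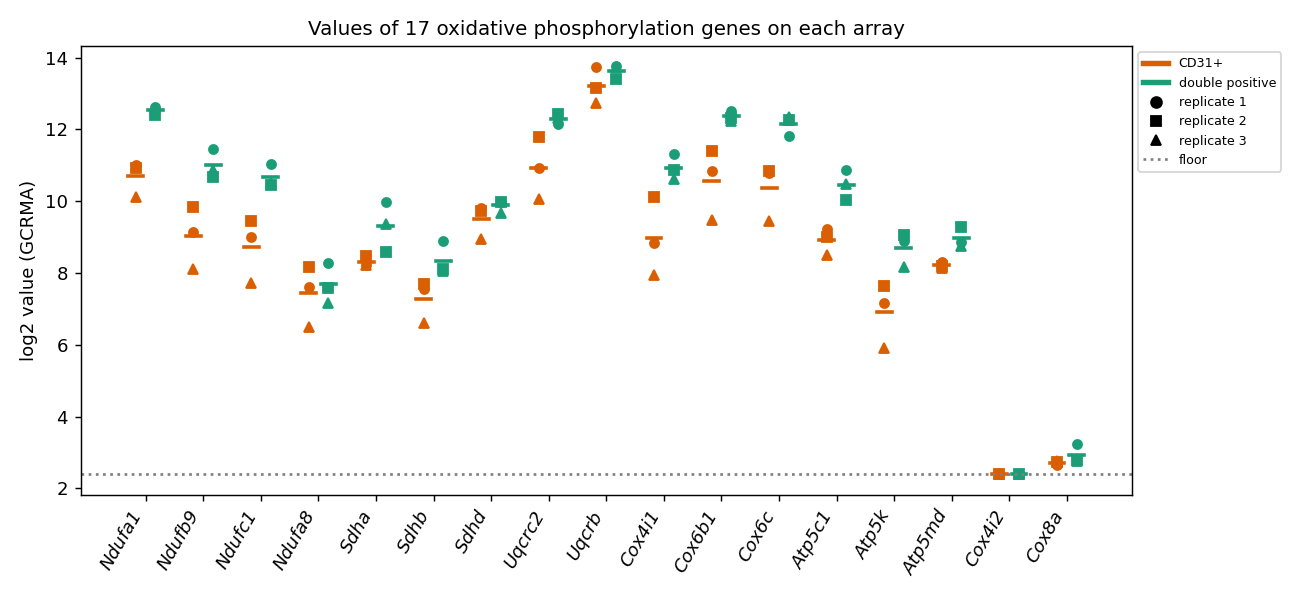
Log2 values (GCRMA) of 17 members on each array, with CD31+ arrays in orange, double-positive arrays in green and replicate numbers as symbols. Bars are group means of 3 arrays, the dotted line is the floor at 2.39, the triangle of CD31+ replicate 3 is the lowest point for most bright genes, and Ndufa8, Sdhd and Uqcrb overlap between the groups.

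Complex V, the ATP synthase, had 13 bright members of 17, with differences of 0.75 to 1.80 and a median of 1.41 (0.74 centred). With the filter 9 of the 13 were higher, where 33.2% of all genes were. With centring as well 2 were, near the 12.6% of all genes. The groups did not overlap for 11 of the 13, against 46.9% of all bright genes. On centred arrays 4 of the 13 were higher without overlap, against 20.7% of all bright genes. The median level of the 13 on each array differed less between the groups, by 0.82 as deposited and 0.14 centred. The centred medians overlapped between the groups. Atp5c1, which encodes the central gamma subunit that turns inside the catalytic head, had 9.22, 9.0 and 8.51 on the CD31+ arrays and 10.86, 10.03 and 10.48 on the double-positive arrays. The difference was 1.55 (standard error 0.307, limma adjusted p = 0.188 and 0.0477 with the filter and centring), and the CD31+ arrays lay closer together than in most members. Atp5k, subunit e of the membrane part, had 7.16, 7.64 and 5.92 against 8.90, 9.05 and 8.18, a difference of 1.80 with SE 0.555 (limma adjusted p = 0.416 and 0.0494 with the filter and centring).

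The subunits of the catalytic head, Atp5a1 (alpha) and Atp5b (beta), named here after their values were seen, differed by 1.25 and 1.31 and passed with the filter (limma adjusted p = 0.0233 and 0.0255) but not with centring. Atp5a1 had 9.15, 9.17 and 8.55 against 10.59, 9.65 and 10.39. Atp5md, a small membrane subunit, had the smallest difference of the bright members, 0.75, with 8.31, 8.20 and 8.14 against 8.86, 9.29 and 8.75. Its arrays were tight in both groups and did not overlap (standard error 0.164, limma adjusted p = 0.225), and the difference was 0.07 with centred arrays.

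Among the 9 assembly and accessory genes the bright median difference was smaller, 0.76, and the median level of the 3 bright ones was lower, 5.78. Cox7a2l, a factor that joins complexes III and IV into supercomplexes, had 10.29, 10.01 and 9.15 on the CD31+ arrays and 10.95, 11.10 and 10.92 on the double-positive arrays, a difference of 1.17 with SE 0.333 (limma adjusted p = 0.362 and 0.0286 with the filter). The complex I assembly factors Ndufaf4 and Ndufaf8 differed by 0.73 and 0.76, and the other 6 had means below 5. Ndufaf2, one of these, had 3.93, 3.92 and 4.11 against 5.75, 5.58 and 4.53, a difference of 1.3 without overlap.

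Many members have further probe sets, and most differed in the same direction. Of the 61 bright members 27 had at least 1 more bright probe set, and all 38 such probe sets were higher on the double-positive arrays, by 0.16 to 2.29. The brightest and the next probe set of a gene lay a median of 0.22 apart and more than 0.5 apart in 6 of the 27. Subunit genes have many processed pseudogenes, and 11 of the 90 probe sets used have the suffix for possible cross-hybridization (x) and 14 that for a match to several transcripts (s). A further 32 have the suffix for transcripts of 1 gene (a). With probe sets that carry none of these 3 suffixes, 72 members could be read and limma called 1, the dimmer probe set of Ndufc2. The share of all genes called with such probe sets was not counted.

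Of the 8 genes that passed with the filter and centred arrays, 5 are shown by the stretch before their start, as given by RefSeq (GRCm38.p6). Nuclear respiratory factor 1 (NRF1) and the ETS factor GABP are known regulators of respiratory chain genes. Windows of 250 bases before the start were found for 74 of the 90 members (79 windows) and searched on both strands for GCGC, any base and TGCGC in a row (NRF1), CCGGAAG (GABP) and AAGATGGCG (YY1). The windows below are those of Atp5k (chr5:108434400-108434649), Cox6b1 (chr7:30626115-30626364), Ndufa1 (chrX:37191239-37191488), Ndufc1 (chr3:51408956-51409205) and Atp5c1 (chr2:10080511-10080760), all on the minus strand, 5′ to 3′ toward the gene, with a match in capitals.
Atp5k: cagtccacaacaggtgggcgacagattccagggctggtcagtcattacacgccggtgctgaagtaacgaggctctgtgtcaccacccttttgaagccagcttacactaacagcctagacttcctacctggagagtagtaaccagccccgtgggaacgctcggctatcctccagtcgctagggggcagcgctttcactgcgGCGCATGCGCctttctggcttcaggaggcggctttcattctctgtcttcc
Cox6b1: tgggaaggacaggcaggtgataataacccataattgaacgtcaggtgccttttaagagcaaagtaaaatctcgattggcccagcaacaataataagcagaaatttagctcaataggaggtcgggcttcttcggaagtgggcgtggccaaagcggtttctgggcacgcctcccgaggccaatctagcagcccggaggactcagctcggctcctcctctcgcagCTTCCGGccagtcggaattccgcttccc
Ndufa1: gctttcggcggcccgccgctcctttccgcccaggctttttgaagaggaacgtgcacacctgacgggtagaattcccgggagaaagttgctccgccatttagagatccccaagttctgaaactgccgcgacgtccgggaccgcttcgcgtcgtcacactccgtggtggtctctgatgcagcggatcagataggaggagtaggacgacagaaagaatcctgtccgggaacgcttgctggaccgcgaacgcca
Ndufc1: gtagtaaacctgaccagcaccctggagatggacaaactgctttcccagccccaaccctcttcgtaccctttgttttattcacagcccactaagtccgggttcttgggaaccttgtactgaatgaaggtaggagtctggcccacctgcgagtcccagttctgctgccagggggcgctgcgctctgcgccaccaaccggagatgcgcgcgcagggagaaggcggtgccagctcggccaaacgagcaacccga
Atp5c1: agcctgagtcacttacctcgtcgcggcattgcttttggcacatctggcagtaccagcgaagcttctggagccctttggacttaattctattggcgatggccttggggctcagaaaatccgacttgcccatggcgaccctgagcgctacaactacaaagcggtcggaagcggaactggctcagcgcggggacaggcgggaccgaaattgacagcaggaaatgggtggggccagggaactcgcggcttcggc
The Atp5k window holds an NRF1 match, the Cox6b1 window a GABP match on the reverse strand, and the other 3 windows none. For Atp5c1 the first of 2 windows is shown, and the other holds an NRF1 match. NRF1 letters occurred in 16.5% of all member windows and in 17.9% of the windows of bright members. They occurred in 8.79% of the windows of array genes with a mean of at least 5 and 3.74% of all 32851 windows. In the same order the shares were 17.7%, 19.6%, 13.6% and 6.91% for GABP. For YY1 they were 1.27%, 1.79%, 1.17% and 0.606%. A match is a description of the sequence and not a measured site.

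Other genes of mitochondrial energy metabolism had a lower median difference than the members. Over 97 measured genes of 6 lists no gene was called by limma over the whole table (0 higher, 0 lower). The count at an unadjusted p under 0.05 was 27 higher and 0 lower, where 12.5% of all genes were higher. With the filter 17 of 44 tested were higher and 0 lower at 5% FDR, near the 33.2% of all genes. The 42 bright ones had a median difference of 0.85 (0.17 centred). Their median level was 7.2, against 9.24 for the bright members. Differences of genes in general rose with level up to a mean of 11, so this contrast is not matched in level. By list the bright medians were 1.09 for the TCA cycle (11 genes), 1.09 for mitochondrial carriers and pores (8), 0.90 for other electron carriers (7), 0.77 for assembly factors (11) and 0.75 for mitochondrial biogenesis (4). Of the mitochondrial DNA-encoded subunits 1 of 13 was measured. mt-Nd5, a complex I subunit, had 10.29, 10.34 and 9.80 on the CD31+ arrays and 9.66, 10.55 and 9.99 on the double-positive arrays. The groups overlapped, with a difference of -0.07 (limma adjusted p = 1) that was -0.75 with centred arrays, where it passed as lower with the filter and the block (limma adjusted p = 0.0472).

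Cox17, which carries copper to complex IV, had the largest difference of these lists. It had 9.39, 8.45 and 8.16 on the CD31+ arrays and 10.74, 11.15 and 11.04 on the double-positive arrays, a difference of 2.31 with SE 0.375 (limma adjusted p = 0.130). It passed with the filter (adjusted p = 0.00195), with centring as well (0.00481) and then also without CD31+ replicate 3 (0.0277). Cox15, an enzyme of heme a synthesis for the same complex, had 6.15, 6.30 and 5.71 against 5.95, 5.68 and 5.80, a difference of -0.24. It passed as lower, at -0.92, with the filter and centred arrays (limma adjusted p = 0.0232). As deposited its groups overlapped (limma adjusted p = 0.505 with the filter). Its probe set has the suffix for possible cross-hybridization. Cox15 was named after its values were seen, as was Slc25a4, which exchanges ATP for ADP. Slc25a4 had 9.97, 10.62 and 8.68 against 11.64, 11.65 and 11.50, a difference of 1.84, and passed with the filter and centring (limma adjusted p = 0.0422).

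With the filter 7 of 13 tested TCA cycle genes, 5 of 8 carriers and pores, 2 of 7 other electron carriers, 2 of 11 assembly factors and 1 of 4 biogenesis genes were higher. Of all genes 33.2% were higher with the filter. With centring as well 1 carrier and 1 assembly factor of the 44 tested genes were higher, and 1 assembly factor was lower. The shares of all genes were then 12.6% higher and 9.63% lower. Slc25a3, the phosphate carrier, had 10.24, 9.88 and 9.85 against 11.49, 11.02 and 11.97 and differed by 1.51 (limma adjusted p = 0.177 and 0.00897 with the filter), and the outer membrane pore gene Vdac3 differed by 1.17 (adjusted p = 0.0242 with the filter). Suclg1, of succinyl-CoA ligase, had 5.59, 5.25 and 5.48 against 6.41, 6.44 and 6.31, a difference of 0.95 with narrow spread (limma adjusted p = 0.0593 and 0.0242 with the filter), and Dlst, of the 2-oxoglutarate dehydrogenase complex, differed by 0.84 (limma adjusted p = 0.0715). Etfdh and Etfa, which feed electrons from fatty acid oxidation into ubiquinone, differed by 0.76 (limma adjusted p = 0.0749 and 0.0509 with the filter) and 1.55 (limma adjusted p = 0.118 and 0.00593 with the filter). Etfa did not pass with filter and centring (0.0957), but did without CD31+ replicate 3 (0.0237). Bcs1l, a complex III assembly factor, differed by 0.26. Of the biogenesis genes Ssbp1, which binds single-stranded mitochondrial DNA and was named after its values were seen, had the largest difference, 1.45 (limma adjusted p = 0.647 and 0.0475 with the filter). Yy1 and Polg2, the latter a subunit of the mitochondrial DNA polymerase, differed by 0.77 and 0.74 (limma adjusted p = 0.0737 and 0.0803 with the filter), and Polg2 passed with filter and block (0.0494).

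**Figure D5:**
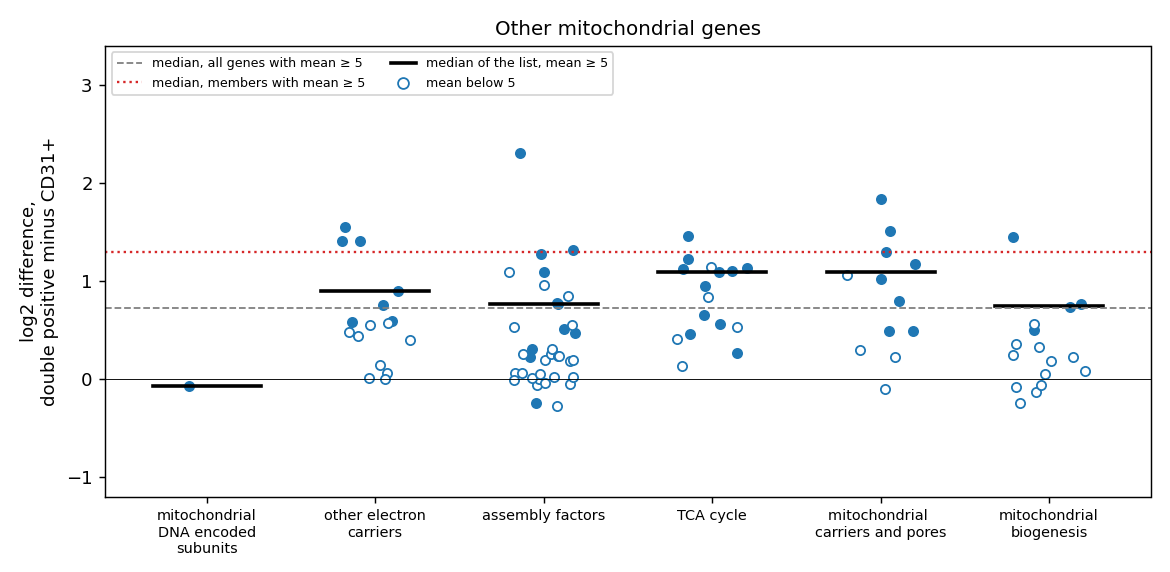
Log2 difference, double positive minus CD31+, of 97 other mitochondrial genes in 6 lists (points, filled where the mean log2 value is at least 5). Black lines are list medians over filled points, the dashed line is the median of all bright genes (0.73) and the dotted line that of the bright oxidative phosphorylation members (1.3), above each list median. The lists and the members are not matched in level, with a median level of 7.2 and 9.24 for their bright genes.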

How the data were processed

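RNA of sorted LN endothelial cells (20 ng per sample) was amplified in 2 rounds and hybridized to 6 mouse GeneChip arrays. The authors normalized the arrays with GCRMA, so the deposited values are log2 RNA abundances, 1 per probe set and array. Versions of the authors' tools are not given in the sources used here. Genes were named from the platform table. Left out were 10 probe sets that name several genes of which at least 1 matches the rule. Group differences were fitted in R 4.3.3 by limma 3.58.1 (lmFit, then eBayes) over 45037 probe sets, 64 controls having been removed, with Benjamini-Hochberg adjustment at 5% FDR and no block. Python 3.11.15 and matplotlib 3.10.9 drew the figures.

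The members and gene lists were chosen with earlier results of these data known. Genes were named by rule, namely members called over the whole table (none were), the highest and the lowest bright member of each complex, the Sdh genes, the isoform pairs and the 2 smallest adjusted p-values of each list. Others were named after their values were seen. Centring subtracted the array's median over the 5764 bright probe sets (mean log2 of 5 or more). Arrays that share a replicate number deviated together from the group means (r of 0.341, 0.475 and 0.418 over probe sets), and the series describes its samples as paired, so the number was taken to pair them and used as a block in an alternative. The fit was tested on simulated data. Precision is limited by 3 arrays a group, and how many mice each array pools is not given in the sources used here. Alternatives were the filter, centring, the block, other eBayes settings, averaged or suffix-free probe sets and leaving out each array.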

Additional observations from a re-analysis of the deposited data

How the results depend on the processing

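With no filter 0 members were called with the replicate block, with eBayes with trend and robust, with probe sets averaged per gene and under the cell type word. Members called higher were 30 with the filter, 8 with filter and centring, 49 with filter and block, 23 with all 3, and 1 with suffix-free probe sets. Centring without the filter gave 36 higher and 16 lower, with 67.2% of all genes lower, since centring also moves values at the floor. With the filter and without CD31+ replicates 1, 2 and 3 in turn 22, 46 and 17 were higher, and 1 with centring and without replicate 3, alternatives chosen after seeing the data. Other pathway genes called higher were 17, 2, 26 and 6 with the filter, filter and centring, filter and block, and all 3, with 1 lower in the second and 2 in the last. They were 12 higher and 26 lower with centring alone, 2 higher with averaged probe sets, 14, 18 and 7 with the filter without CD31+ replicates 1, 2 and 3, and 2 higher and 1 lower with centring and without replicate 3. Of all genes 33.2%, 12.6%, 46.4% and 18.3% were higher with the filter, filter and centring, filter and block, and all 3. Lower were 9.63% in the second of these and 14.7% in the last. With centring alone 7.2% were higher and 67.2% lower. With the filter and without CD31+ replicates 1, 2 and 3 in turn 28.5%, 36.7% and 23.2% were higher. With centring and without replicate 3 the shares were 9.2% higher and 7.13% lower. Shares of all genes were not counted for averaged or suffix-free probe sets or for eBayes with trend and robust. They were also not counted for leaving out 1 array with no filter.

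The median differences over all members of a group, dim ones included, were 1.02 for all 90, 1.13 for complex I, 0.87 for II, 0.85 for III, 0.29 for IV, 1.25 for V and 0.31 for assembly and accessory genes. Centred, they were 0.34 for all, 0.20 for II, 0.58 for V and, reversed, -0.39 for IV and -0.37 for the last group, where members at or near the floor move down. With the filter they were 1.59 for IV and 0.76 for assembly and accessory genes, also with the block, and 0.33 for II and 0.91 for IV with centring, also with the block. With the filter and without CD31+ replicates 1, 2 and 3, IV had 1.67, 1.93 and 1.21, and assembly and accessory genes 1.15 and 0.91 without the first and second. With filter and centring and without CD31+ replicate 3 the medians were 0.38, 0.29, 0.21, 0.11, 0.69 and 0.55 for all members and complexes I to V. With averaged probe sets IV had 0.12, and with suffix-free ones 0.00 and Cox8b/Cox8a 0.03. Under the cell type word all signs turn, with medians of -1.02, -1.13, -0.87, -0.85, -0.29, -1.25 and -0.31 and isoform pairs at 1.97, 1.29, 1.79, 1.66, 0.22 and 1.52.

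Leaving out 1 array over the whole table called 0 members higher and 0 to 1 lower, with 0 other pathway genes either way. The medians ran from 0.69 (without CD31+ replicate 3) to 1.24 for all members, 0.79 to 1.39 for complex I, 0.72 to 0.92 for II, 0.62 to 0.98 for III, 0.21 to 0.40 for IV, 0.99 to 1.36 for V and 0.21 to 0.45 for assembly and accessory genes. The pair differences ran from -2.54 to -1.45 for Cox4i2/Cox4i1, -1.61 to -0.83 for Cox6a2/Cox6a1, -2.20 to -1.25 for Cox6b2/Cox6b1, -1.94 to -1.17 for Cox7a1/Cox7a2, -0.30 to -0.07 for Cox8b/Cox8a and -1.91 to -1.28 for Ndufa4l2/Ndufa4. The cause of these changes was not tested unless stated.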
